A study of Mus musculus with 24 samples.

Results

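Read counts of 10 genes of the progesterone response were followed over 24 libraries of mouse uterus and endometriotic lesions. They are Gata2, Sox17, Fkbp4, Ncoa2, Arid1a, Errfi1, Cebpb, Bcl6, Sirt1 and Notch1, chosen by name for their roles as partners, targets or modifiers of the progesterone receptor, with 1 gene identifier for each symbol. The table holds 56691 genes in all.

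Progesterone binds its receptor, PGR, which is held ready in the cytosol by heat shock chaperones and, once bound, recruits coactivators and chromatin remodellers at its target genes. In the mouse uterus before implantation, the receptor stops the growth of the epithelium and prepares the stroma to decidualise. Endometriosis, the growth of uterine tissue outside the uterus, is known in women for a weak endometrial response to this hormone, called progesterone resistance.

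The lesions came from mice labelled Pgrcre/+ Rosa26mTmG/+, in which Cre is inserted at the Pgr locus and switches the colour of a membrane reporter. Eutopic uterus, meaning the uterus of mice with endometriosis, and the uterus of sham-operated mice are labelled Rosa26mTmG/+ without Cre. All mice were of a mixed C57BL/6 and SV129 background, were operated on at 8 weeks of age, were mated 1 or 3 months later, and gave tissue on pregnancy day 3.5. By the labels, mice with endometriosis were fertile at 1 month and subfertile at 3 months, and sham mice were fertile at both times. Each of the 6 groups holds 4 libraries of total RNA: lesions, eutopic uterus and sham uterus at 1 month, and the same at 3 months. The series text instead gives the Cre allele for the mice with endometriosis as a whole. The Cre allele therefore cannot be told apart from lesion tissue by the labels, or from endometriosis surgery by the series text, and the mice at 3 months were also older. No label ties a library to an animal or says whether lesions were pooled, so p-values measure the spread between these samples, which may be technical.

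Libraries held 45133642 to 59407134 counted reads, and several lesion libraries carried transcripts of other tissues. At 3 months uterine epithelial markers (12 genes, none at 0 in any library) reached sums of 158, 57.0, 1345 and 990.3 CPM (the usual library-scaled read count, with TMM factors) in lesion libraries 1 to 4, and of 1149 to 1399 CPM in eutopic libraries. Ovarian steroid cell markers reached 24378 CPM in lesion library 1 at 3 months, skeletal muscle markers 47876, 15226 and 8212 CPM in libraries 2, 3 and 4, and pancreas and liver markers 70186 CPM in lesion library 2 at 1 month. Macrophage marker sums were 1961 to 5142 CPM in 1-month lesions (eutopic uterus 609 to 771 CPM) and 316 to 10416 CPM in 3-month lesions (eutopic uterus 506 to 852 CPM). The tissue is called endometrium in the protocol and uterus in the labels, and smooth muscle markers summed at 3 months to 2588 to 8862 CPM in lesions, below all eutopic (9150 to 18190 CPM) and sham (9884 to 15542 CPM) libraries. At 1 month these sums were 8258 to 12239 CPM in lesions, overlapping the eutopic range of 10214 to 16294 CPM. In such bulk samples, fewer cells of a type and less RNA per cell cannot be told apart.

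In lesions, 3 of the 10 genes passed the test against eutopic uterus at 1 month and 6 at 3 months. A gene was called when its edgeR p, adjusted by Benjamini-Hochberg over the 22249 genes tested, was under 0.05. Cebpb and Bcl6 were higher and Errfi1 lower at both times, and Gata2, Sox17 and Fkbp4 were lower at 3 months. Of all genes tested, 20.7% were called at 1 month (12.0% higher and 8.76% lower) and 40.5% at 3 months (23.4% higher and 17.1% lower), so calls were frequent in both comparisons. Median log2 fold changes at these times were 0.03 and -0.01 over the 10 genes, and -0.01 and 0.04 over all of them. Ncoa2, Arid1a, Sirt1 and Notch1 passed in neither comparison. Lesion and eutopic libraries did not overlap for 3 of the 10 genes at 1 month (Cebpb, Errfi1 and Arid1a), where 31.5% of all genes did not, and for 6 at 3 months, where 23.9% did not.

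**Figure D1:**
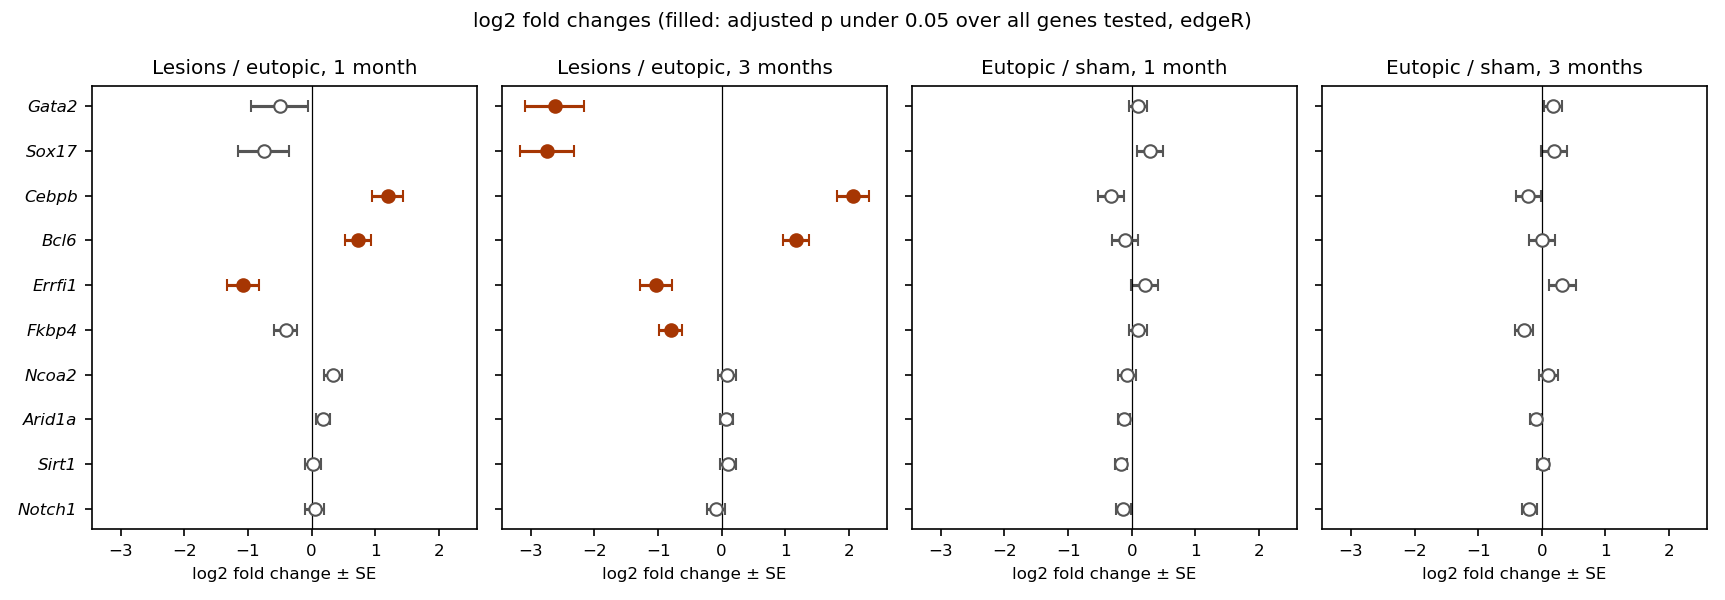
Log2 fold changes (horizontal axis) of the 10 genes with their standard errors, for lesions against eutopic uterus and eutopic against sham uterus at 1 and 3 months, filled where the edgeR adjusted p was under 0.05. In lesions at 3 months Sox17 lies at -2.75, Gata2 at -2.63 and Cebpb at 2.07, while every eutopic against sham value lies between -0.32 and 0.32.

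Gata2 (ENSMUSG00000015053.15) encodes a zinc-finger transcription factor that acts upstream of Pgr in the mouse uterine epithelium. RefSeq (GRCm38.p6) places a start of the gene on chromosome 6, and the window from 250 bases before to 50 bases after it is printed because Gata2 acts upstream of the receptor gene and was lower in lesions at 3 months. It spans chr6:88198414-88198713 on the plus strand. The capitals mark a CCAAT box, read on either strand, so that ATTGG is the same box on the other strand. The window is 73.7% G and C, against a median of 52.7% over all 32851 promoter windows, and 37.4% of all windows hold CCAAT. A second RefSeq start lies upstream, and the counts do not show which was used.
Gata2, second start: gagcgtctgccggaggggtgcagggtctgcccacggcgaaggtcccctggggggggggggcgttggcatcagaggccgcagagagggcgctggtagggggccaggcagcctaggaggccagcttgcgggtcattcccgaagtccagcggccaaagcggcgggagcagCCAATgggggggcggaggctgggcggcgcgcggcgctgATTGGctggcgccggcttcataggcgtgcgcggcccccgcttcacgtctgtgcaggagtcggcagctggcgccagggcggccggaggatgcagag

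At 1 month Gata2 stood at 295, 143, 245 and 176 CPM in lesion libraries 1 to 4, against 267, 276, 323 and 361 CPM in eutopic uterus. Lesion libraries 2 to 4 lay below all eutopic libraries and library 1 lay among them. The edgeR test did not pass, with a log2 fold change of -0.50 ± 0.44 (SE) and adjusted p = 0.44. At 3 months it was at 14.9, 12.2, 108 and 74.7 CPM in lesions, against 330.2, 283, 363 and 318 CPM in eutopic uterus. Every lesion library was below every eutopic library, with libraries 1 and 2 far below the other lesions. In edgeR Gata2 fell by 2.63 on the log2 scale in lesions (SE 0.47, adjusted p = 0.00025), and it was still called without libraries 1 and 2, at -1.85.

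Sox17 (ENSMUSG00000025902.14) encodes an HMG-box factor of uterine epithelium and of endothelium, and is a progesterone receptor target that acts on Ihh in the mouse. At 1 month it was at 180.4, 79.2, 158 and 106 CPM in lesions, against 177, 195, 243 and 274 CPM in eutopic uterus. The lesion values were lower in libraries 2, 3 and 4, and library 1 lay within the eutopic range. In edgeR the difference, -0.75 ± 0.40 (log2, SE), had an adjusted p of 0.19. At 3 months Sox17 was at 15, 12, 74 and 23.9 CPM in lesions, against 192, 192, 222 and 234 CPM in eutopic uterus. The groups were far apart, and library 3 was the highest lesion. Sox17 fell by 2.75 (SE 0.43, edgeR, adjusted p = 7.8e-05), with -2.13 without libraries 1 and 2 and -3.63 without library 3.

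Gata2 and Sox17 were lower at 3 months alongside epithelial markers in lesion libraries 1, 2 and, least so, 4, and smooth muscle markers in all 4 lesions. The part of these cells in the result was not tested. Per 100 CPM of summed epithelial markers, Gata2 was at 9.47, 21.4, 8 and 7.54 CPM in lesions at 3 months, against 22.7 to 26.1 CPM in eutopic and 8.25 to 29.4 CPM in sham uterus. All 4 lesion ratios lay below the eutopic ones, most closely in library 2, but they overlapped those of sham uterus, where library 4 had the highest marker sum (2507 CPM) and the ratio of 8.25. Sox17 was at 9.53, 21.0, 5.50 and 2.42 CPM per 100 CPM of the same markers in lesions, against 14.4 to 16.7 CPM in eutopic and 5.60 to 16.5 CPM in sham uterus. Here lesion library 2 was above the eutopic range and the other 3 below it, and library 1 lay within the sham range. Per 100 CPM of endothelial markers, Gata2 was at 1.51 to 19.2 CPM in lesions, against 31.2 to 43.8 CPM in eutopic and 22.6 to 43.9 CPM in sham libraries, which did not overlap the lesions. Sox17 was at 1.49 to 13.2 CPM per 100 CPM of these markers in lesions, against 21.2 to 32.2 CPM in eutopic and 12.7 to 30.6 CPM in sham libraries, so lesions overlapped sham but not eutopic uterus. Uterine stroma markers summed to 3971 to 19365 CPM in lesions at 3 months, overlapping the eutopic range of 13645 to 29224 CPM. Per 100 CPM of these, Gata2 was at 0.063 to 0.86 CPM in lesions and 1.13 to 2.34 CPM in eutopic uterus. Sox17 was at 0.062 to 0.595 CPM in lesions and 0.656 to 1.71 CPM in eutopic uterus. Lesions overlapped neither eutopic nor sham uterus in these ratios. Lesion library 3 had an epithelial marker sum within the eutopic range, at 1345 CPM, and held 108 CPM of Gata2 and 74 CPM of Sox17.

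**Figure D2:**
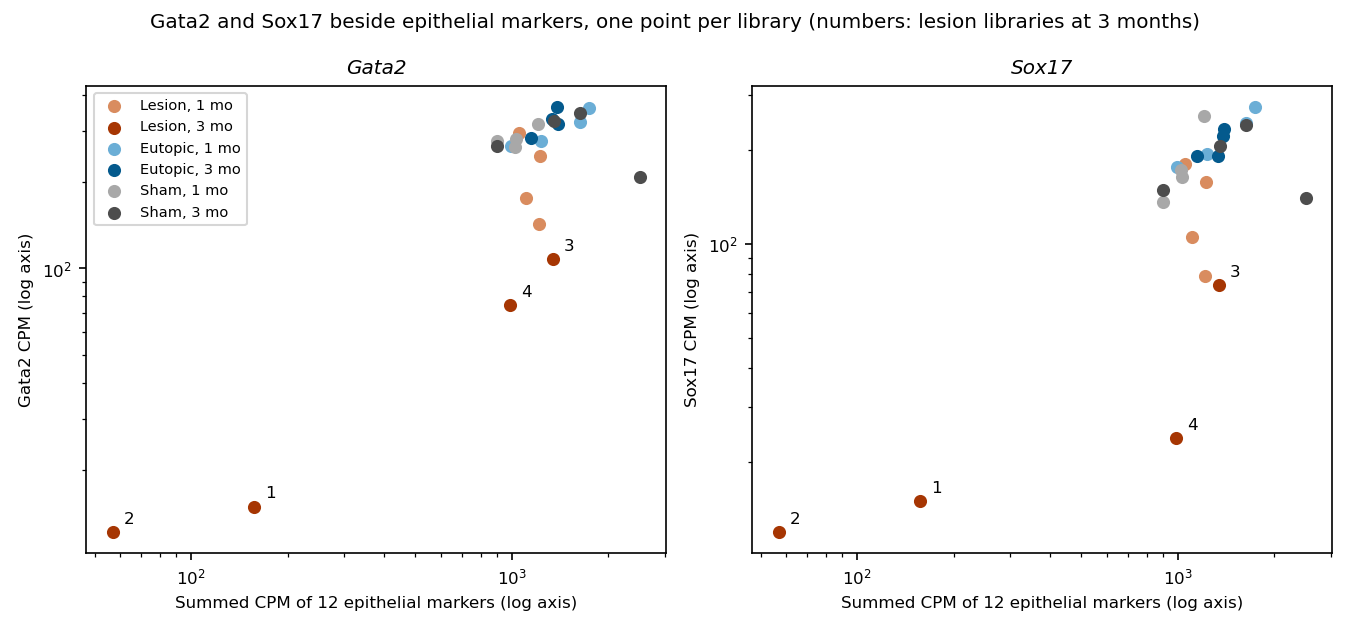
Gata2 and Sox17 in CPM (vertical axis, log scale) against the summed CPM of 12 epithelial markers (horizontal axis, log scale), 1 point for each of the 24 libraries, coloured by group. Lesion libraries 1 and 2 at 3 months lie at the lower left, and lesion libraries 3 and 4 lie below eutopic and sham libraries of like marker sum.

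The receptor itself showed a like split between lesion libraries. Pgr was at 7.06, 14.5, 161 and 60.8 CPM in lesions at 3 months, against 273, 212, 192 and 198 CPM in eutopic uterus. Lesion library 3 was close to the eutopic range and library 1 lowest. In edgeR Pgr fell by 1.85 at 3 months (SE 0.59, adjusted p = 0.017), and its value at 1 month was 0.00 ± 0.57 (adjusted p = 1.0). Between lesions at 3 and 1 months Pgr did not pass (-1.60 ± 0.59, edgeR, adjusted p = 0.083). Neither did the change of its lesion to eutopic difference with time (-1.85 ± 0.82, edgeR, adjusted p = 0.29). By the labels only the lesions carry Cre at the Pgr locus, so an effect of that allele on Pgr cannot be told apart from lesion tissue.

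Fkbp4 (ENSMUSG00000030357.11) encodes FKBP52, a co-chaperone that readies the progesterone receptor on HSP90, and mice without it are resistant to progesterone in the uterus. Its promoter window lies on the minus strand at chr6:128438607-128438906 (GRCm38.p6, RefSeq), is 65.3% G and C, and holds a CCAAT box, again in capitals. It is shown because Fkbp4 was the only receptor co-chaperone among the 10 genes and was lower in lesions at 3 months.
Fkbp4: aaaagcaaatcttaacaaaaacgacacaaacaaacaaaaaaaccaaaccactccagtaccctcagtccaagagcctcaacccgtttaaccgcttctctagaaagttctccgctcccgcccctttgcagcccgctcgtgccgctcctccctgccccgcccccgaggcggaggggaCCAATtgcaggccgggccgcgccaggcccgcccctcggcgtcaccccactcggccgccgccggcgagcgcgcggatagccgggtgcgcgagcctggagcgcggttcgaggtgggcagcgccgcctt

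At 1 month Fkbp4 was at 263, 180.3, 289 and 195 CPM in lesions, against 282, 250.05, 393 and 314 CPM in eutopic uterus. Libraries 2 and 4 were below the eutopic range and the other lesions within it. This edgeR difference of -0.41 ± 0.18 (log2, SE) did not pass (adjusted p = 0.12). At 3 months Fkbp4 was at 221, 119.6, 182 and 150.05 CPM in lesions, against 336, 287, 303 and 249.97 CPM in eutopic uterus. No lesion library reached the lowest eutopic one. Fkbp4 fell by 0.80 (SE 0.19, edgeR, adjusted p = 0.0020), and its value without lesion libraries 1 and 2 was -0.85. Per 100 CPM of endothelial markers Fkbp4 was at 14.9 to 32.6 CPM in lesions, against 29.7 to 42.2 CPM in eutopic uterus, and per 100 CPM of epithelial markers at 13.6 to 209.8 CPM in lesions, against 17.9 to 25.2 CPM in eutopic uterus. The groups overlapped in the endothelial ratio. In the epithelial ratio lesion libraries 1 and 2 lay above the eutopic range and libraries 3 and 4 below it. The highest ratio was that of library 2, where these markers summed to only 57.0 CPM. The part of these cells in the lower level was not tested.

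Ncoa2 and Arid1a work with the receptor at chromatin. Ncoa2 (ENSMUSG00000005886.15) encodes a steroid receptor coactivator. Its mean CPM was 115 ± 9.84 for lesions and 92.1 ± 14.0 for eutopic uterus at 1 month, and 104 ± 17.5 for lesions and 98.7 ± 12.9 for eutopic uterus at 3 months (SD, n = 4 each). The edgeR values, 0.34 ± 0.14 and 0.08 ± 0.14 (log2, SE), had adjusted p = 0.098 and 0.69. Groups overlapped at both times, and Ncoa2 passed at 1 month when eutopic library 1 was left out (0.43, edgeR, adjusted p = 0.043).

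Arid1a (ENSMUSG00000007880.17), a DNA-binding subunit of the BAF chromatin remodeller that acts with the receptor in the mouse uterus, had the narrowest range of group means. Its mean CPM was 203 ± 9.19 for lesions and 181 ± 9.18 for eutopic uterus at 1 month, and 206 ± 28.8 for lesions and 196 ± 16.5 for eutopic uterus at 3 months (SD, n = 4 each). At 1 month all lesion libraries, at 194 to 212 CPM, lay above all eutopic libraries, at 171 to 192 CPM. Neither this difference (0.18 ± 0.10, log2, SE) nor that at 3 months (0.07 ± 0.10) passed in edgeR (adjusted p = 0.22 and 0.62).

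Errfi1 (ENSMUSG00000028967.11), also called MIG-6, is a progesterone receptor target whose protein binds ERBB receptors and shuts them off. RefSeq lists a pair of starts on the plus strand of chromosome 4, and both windows are printed because they differ in make-up for the 1 gene that was lower in lesions at both times. The first, chr4:150853546-150853845 (GRCm38.p6), is 42.0% G and C, and its capitals mark AGATAA, the core read by GATA factors, found in 11.2% of all windows on either strand and in 1 of the 12 windows of these genes. The second, chr4:150854820-150855119, is 66.7% G and C, and its capitals mark a TATAAA box (13.6% of all windows) and a CCAAT box. These are letter matches, not sites shown to be bound.
Errfi1, first start: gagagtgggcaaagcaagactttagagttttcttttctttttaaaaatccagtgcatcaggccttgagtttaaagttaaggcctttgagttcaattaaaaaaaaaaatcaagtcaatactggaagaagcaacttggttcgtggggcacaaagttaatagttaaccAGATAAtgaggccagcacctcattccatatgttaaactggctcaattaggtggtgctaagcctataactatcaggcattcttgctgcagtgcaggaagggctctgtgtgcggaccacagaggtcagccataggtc
Errfi1, second start: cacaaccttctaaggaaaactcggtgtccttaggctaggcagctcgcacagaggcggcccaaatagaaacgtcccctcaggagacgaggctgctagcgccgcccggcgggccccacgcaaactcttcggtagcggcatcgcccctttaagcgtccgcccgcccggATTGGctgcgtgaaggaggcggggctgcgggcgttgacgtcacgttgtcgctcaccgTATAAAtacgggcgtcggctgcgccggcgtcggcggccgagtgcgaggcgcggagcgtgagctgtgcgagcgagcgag

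Errfi1 was at 112, 101, 124 and 105 CPM in lesions at 1 month, against 320.2, 187, 221 and 215 CPM in eutopic uterus. The lesion libraries lay close together, and all were below the lowest eutopic library. Errfi1 fell by 1.08 (SE 0.25, edgeR, adjusted p = 0.0063). At 3 months it was at 47.6, 107, 120.2 and 66.7 CPM in lesions, against 167, 187, 192 and 151 CPM in eutopic uterus. The groups stayed apart, and lesions were more spread than at 1 month. Errfi1 fell by 1.03 (SE 0.25, edgeR, adjusted p = 0.0030), and its fold change without lesion libraries 1 and 2 was -0.92. Relative to markers the lesions at 3 months lay on both sides of the eutopic values. Errfi1 was then at 5.53 to 21.5 CPM per 100 CPM of endothelial markers in lesions, against 18.8 to 20.9 CPM in eutopic uterus. Per 100 CPM of epithelial markers it was at 6.73 to 187 CPM in lesions, against 10.8 to 16.3 CPM in eutopic uterus. Lesion libraries 1 and 2 lay above this eutopic range, and libraries 3 and 4 below it. The highest ratio was that of library 2, where these markers summed to only 57.0 CPM. The lesion ratios at 1 month lay below the eutopic ones without overlap. For endothelial markers they were 12.4 to 15.3 CPM, with eutopic libraries at 18.8 to 29.5 CPM. For epithelial markers lesions were at 8.29 to 10.6 CPM and eutopic libraries at 12.3 to 32.1 CPM. For stroma markers these ranges were 0.506 to 0.753 CPM and 1.25 to 1.76 CPM. The part of these cells in the lower level was not tested.

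Cebpb (ENSMUSG00000056501.4) encodes a leucine zipper factor that the mouse uterus needs to decidualise and that macrophages also express. Its window, chr2:167688665-167688964 on the plus strand (GRCm38.p6, RefSeq), is shown because Cebpb had the largest rise of the 10 genes. It is 80.7% G and C, and the capitals mark the letters TATAAA, which begin at position 22 downstream of the start.
Cebpb: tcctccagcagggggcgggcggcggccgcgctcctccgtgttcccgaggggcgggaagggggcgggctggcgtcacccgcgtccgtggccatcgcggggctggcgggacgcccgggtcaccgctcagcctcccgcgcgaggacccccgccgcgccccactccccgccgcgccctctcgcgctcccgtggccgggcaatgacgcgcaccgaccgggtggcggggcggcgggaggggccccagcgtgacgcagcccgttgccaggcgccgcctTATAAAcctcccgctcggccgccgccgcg

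At 1 month Cebpb was at 15.5, 33.9, 24.9 and 25.5 CPM in lesions, against 8.34, 9.90, 13.2 and 12.7 CPM in eutopic uterus. Every lesion library was higher, library 1 by the least. Cebpb rose by 1.20 ± 0.25 on the log2 scale (SE, edgeR, adjusted p = 0.0033). At 3 months it was at 46.3, 71.8, 35.8 and 53.6 CPM in lesions, against 14.2, 14.8, 8.92 and 11.4 CPM in eutopic uterus. The lowest lesion library held more than any eutopic one. Cebpb rose by 2.07 ± 0.25 (SE, edgeR, adjusted p = 8.9e-06), and by 1.82 without lesion libraries 1 and 2. Macrophage markers were high in most of these lesions. Lesion library 1 at 3 months, with 46.3 CPM of Cebpb, held 316 CPM of them, under the eutopic range of 506 to 852 CPM. The same library held 24378 CPM of ovarian steroid cell markers. The part of these cells in the result was not tested.

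Bcl6 (ENSMUSG00000022508.6), a transcriptional repressor known to be abundant in the endometrium of women with endometriosis, is also made by lymphocytes. At 1 month it was at 37.6, 41.8, 31.1 and 44.4 CPM in lesions, against 35.1, 21.2, 15.95 and 22.0 CPM in eutopic uterus. Lesions were higher except that library 3 lay below eutopic library 1. Bcl6 rose by 0.73 ± 0.20 (SE, edgeR, adjusted p = 0.016), a call lost when lesion library 2 (adjusted p = 0.051), lesion library 4 (0.056), eutopic library 2 (0.055) or eutopic library 3 (0.063) was left out. At 3 months Bcl6 was at 47.5, 72.7, 50.6 and 58.3 CPM in lesions, against 30.3, 29.8, 19.6 and 22.7 CPM in eutopic uterus. All 4 lesion libraries were higher. Bcl6 rose by 1.16 ± 0.20 (SE, edgeR, adjusted p = 0.00021). At 3 months the B cell marker sum was 6.15 CPM in lesion library 1 and 102 to 229 CPM in the other lesions (eutopic uterus 10.7 to 23.0 CPM), and the part of these cells in the result was not tested.

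Sirt1 (ENSMUSG00000020063.17) encodes a deacetylase that uses NAD and was found with BCL6 in human endometrium. Its mean CPM was 34.7 ± 3.64 for lesions and 34.7 ± 2.82 for eutopic uterus at 1 month, and 41.2 ± 9.25 for lesions and 38.6 ± 4.23 for eutopic uterus at 3 months (SD, n = 4 each). Neither edgeR value passed (0.02 ± 0.12 and 0.09 ± 0.12, log2, SE, adjusted p = 0.94 and 0.57), and the groups overlapped. The highest value, 54.7 CPM, was in lesion library 1 at 3 months.

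Notch1 (ENSMUSG00000026923.16) encodes a cell surface receptor active in decidualisation, and too much of its signal in the mouse uterus lowers PGR. Mean CPM was 92.7 ± 4.85 for lesions and 90.7 ± 9.76 for eutopic uterus at 1 month, and 81.2 ± 21.0 for lesions and 86.5 ± 9.27 for eutopic uterus at 3 months (SD, n = 4 each). Again neither edgeR value passed (0.05 ± 0.15 and -0.09 ± 0.15, log2, SE, adjusted p = 0.85 and 0.66). Lesions at 3 months ranged most widely, with 57.7 CPM in library 1 and 109 CPM in library 4.

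**Figure D3:**
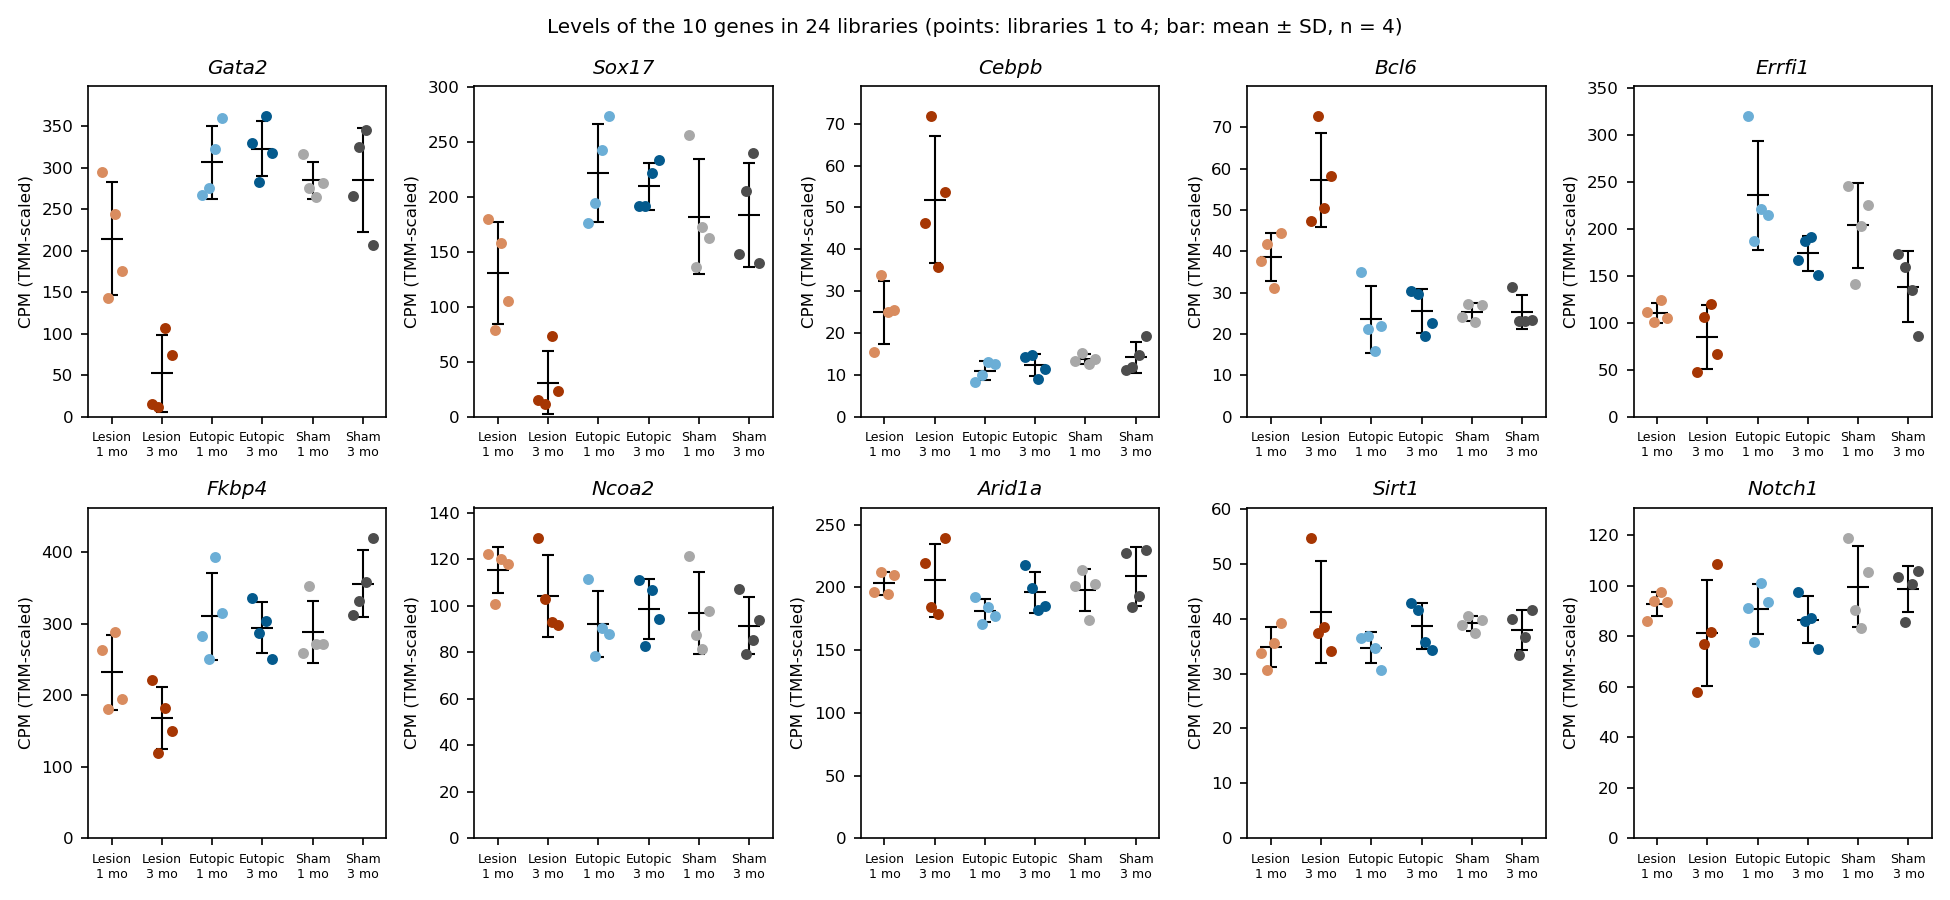
Level of each of the 10 genes in CPM (vertical axis of each panel, starting at 0) in the 4 libraries of every group, with lesions left, eutopic uterus in the middle and sham uterus right, each at 1 and 3 months, points for libraries and bars for the mean and SD. Lesions at 3 months stand apart from both uterine groups for Gata2, Sox17, Cebpb, Fkbp4 and Bcl6, while lesions overlap both uterine groups for Ncoa2, Sirt1 and Notch1 at each time.

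Promoter windows in RefSeq matched 8 of the 10 genes, with 12 starts in all. The letters GGGCGG, the box read by SP1, occurred on either strand in 10 of the 12 windows and in all 8 genes, where 35.7% of all 32851 windows held it. Most of the 12 windows were richer in G and C (up to 80.7%) than the median of all windows (52.7%). The share over all windows was not matched for this and was not counted per gene. CCAAT was in 3 of the 12 and TATAAA in 2. ACANNNTGT, the core shared by the receptors for progesterone, glucocorticoid and androgen, was in 0 of the 12 windows and in 6.8% of all windows, and TTGCNNAA, the core read by C/EBP factors, was in 0 and in 10.8%. A match, or none, describes these letters in this window only.

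Set against sham uterus, lesions gave the same 6 genes and directions at 3 months and the same 3 at 1 month. These comparisons share the lesion libraries with those above, so they are no separate support. Of all 22249 genes, 15.0% were called at 1 month and 41.6% at 3 months, against 3 and 6 of the 10 genes. At 1 month the log2 fold change was 0.87 ± 0.24 for Cebpb, -0.87 ± 0.25 for Errfi1 and 0.63 ± 0.20 for Bcl6 (SE, edgeR, adjusted p = 0.020, 0.023 and 0.040), and lesions overlapped sham in none of the 3, where 30.5% of all genes did not overlap. Against sham at 1 month 0 of the 10 genes passed without lesion library 2, lesion library 4 or sham library 3, and Bcl6 kept its call only when the library left out was lesion library 3.

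At 3 months the log2 fold change against sham was -2.56 ± 0.42 for Sox17, -2.45 ± 0.47 for Gata2 and -1.08 ± 0.19 for Fkbp4 (SE, edgeR, adjusted p = 0.00014, 0.00042 and 0.00020). Cebpb rose by 1.86 ± 0.25 and Bcl6 by 1.18 ± 0.20 (adjusted p = 2.3e-05 and 0.00020). For 5 of the 6 genes the lesion and sham libraries did not overlap, where 21.3% of all genes did not. Sham libraries were at 266, 325, 345 and 207 CPM for Gata2 and at 149, 206, 241 and 140.3 CPM for Sox17, all above every lesion library of that time. Errfi1 was the exception, since sham library 4, at 86.6 CPM, lay within the lesion range, and its difference of -0.70 ± 0.25 (adjusted p = 0.030) no longer passed without lesion library 1 (-0.50, adjusted p = 0.082), lesion library 4 (-0.60, 0.086), sham library 1 (-0.57, 0.090) or sham library 2 (-0.63, 0.077). With only lesions and sham uterus of 3 months in the fit, 4 of the 10 genes passed, without Gata2 (-2.44, edgeR, adjusted p = 0.056) and Errfi1 (-0.70, adjusted p = 0.18), and Errfi1 also failed without lesion libraries 1 and 2 (-0.59, adjusted p = 0.091). Notch1 passed when lesion library 4 was left out (-0.45, adjusted p = 0.013). Fkbp4 was higher in sham uterus at 3 months, at 312, 331, 358 and 420.1 CPM, than in eutopic uterus, at 249.97 to 336 CPM, a difference that did not pass (eutopic against sham -0.28 ± 0.14, edgeR, adjusted p = 0.99).

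Between lesions of different age, 3 of the 10 genes differed, where 10.9% of all genes were called. Against lesions at 1 month, lesions at 3 months held less Sox17 (-2.08 ± 0.42 SE, edgeR, adjusted p = 0.0042) and less Gata2 (-2.05 ± 0.46, adjusted p = 0.0079) and more Cebpb (1.04 ± 0.24, adjusted p = 0.010). The highest lesion library at 3 months was below the lowest at 1 month for Gata2 (108 against 143 CPM) and Sox17 (74 against 79.2 CPM), and the lowest was above the highest for Cebpb (35.8 against 33.9 CPM) and Bcl6 (47.5 against 44.4 CPM). Of all genes, 4.78% were without overlap and lower and 4.22% without overlap and higher, against 2 and 2 of the 10. Bcl6 (0.55 ± 0.20, adjusted p = 0.083) and Fkbp4 (-0.47 ± 0.19, adjusted p = 0.11) did not pass, and both did when lesion library 1 at 3 months was left out (0.62, adjusted p = 0.047, and -0.63, adjusted p = 0.024). Without lesion libraries 1 and 2 at 3 months, Gata2 (-1.27) and Sox17 (-1.44) were still called and Cebpb was not (0.80, adjusted p = 0.077), and with only the 2 lesion groups in the fit 0 of the 10 passed, as did 0 of all genes.

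Whether lesions moved further from the eutopic uterus with time was tested as the change of the lesion to eutopic log2 difference between 3 and 1 months. The change was -2.12 ± 0.63 for Gata2, -1.99 ± 0.57 for Sox17 and 0.88 ± 0.34 for Cebpb (SE, edgeR, adjusted p = 0.11, 0.098 and 0.23). So 0 of the 10 genes passed, 3 had an unadjusted p under 0.05, and 0.769% of all genes were called. DESeq2 called Gata2 (-2.08, adjusted p = 0.031) and Sox17 (-1.96, adjusted p = 0.025) and limma voom Gata2 (-1.65, adjusted p = 0.043). Without lesion library 3 at 3 months, the highest for both genes, edgeR called Sox17 (-2.86, adjusted p = 0.00089) and Gata2 (-2.74, adjusted p = 0.013), and without lesion libraries 1 and 2 it called Gata2 (-1.33, adjusted p = 0.042).

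In the uterus itself the 10 genes were not found to differ between mice with endometriosis and sham mice. Of 21208 genes tested over the 16 uterine libraries, edgeR called 2 (0.00943%) in eutopic against sham uterus at 1 month and 0 (0%) at 3 months, neither of them from this set, where 1020 and 1012 genes had an unadjusted p under 0.05. Of the 10 genes 0 had an unadjusted p under 0.05 at either time, and DESeq2 and limma voom also called 0. The widest values at 1 month were -0.32 ± 0.20 for Cebpb and 0.28 ± 0.20 for Sox17, and at 3 months 0.32 ± 0.21 for Errfi1 and -0.28 ± 0.14 for Fkbp4 (SE, n = 4 each). Mean CPM of Cebpb was 11 ± 2.30 for eutopic and 13.8 ± 1.17 for sham uterus at 1 month, and 12.3 ± 2.72 for eutopic and 14.3 ± 3.72 for sham uterus at 3 months (SD, n = 4 each).

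Bcl6 and Sirt1, both studied in the eutopic endometrium of patients, were close between these uteri. Mean CPM of Bcl6 was 23.6 ± 8.15 for eutopic and 25.3 ± 2.16 for sham uterus at 1 month, and 25.6 ± 5.29 for eutopic and 25.4 ± 4.09 for sham uterus at 3 months (SD, n = 4 each). The log2 differences were -0.10 ± 0.20 and 0.01 ± 0.20 (SE). Sirt1 was at 36.5, 36.9, 34.6 and 30.7 CPM in eutopic uterus at 1 month, against 38.8, 40.5, 37.4 and 39.8 CPM in sham uterus. It was the only one of the 10 without overlap there, where 3.53% of all genes had none, and its log2 fold change of -0.17 ± 0.09 did not pass (edgeR, adjusted p = 0.88).

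With time in the uterus, 0 of the 10 genes passed in eutopic uterus (0.00943% of all genes called) and 0 in sham uterus (0% called). Errfi1 at 3 against 1 month stood at -0.44 ± 0.21 in eutopic and -0.56 ± 0.21 in sham uterus (log2, SE, edgeR, adjusted p = 1.0 and 0.39). Sham uterus held 173, 159, 135 and 86.6 CPM of Errfi1 at 3 months, against 246, 142, 203 and 226 CPM at 1 month, with overlap between the groups. Limma voom called it there (-0.57, adjusted p = 0.035). The change of the eutopic to sham difference with time passed for 0 of the 10, with an unadjusted p under 0.05 for 0 and values from -0.38 for Fkbp4 to 0.20 for Sirt1.

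Which genes had the most similar course over the 24 libraries was measured as the root mean square difference of log2 CPM, each gene centred on its own mean, among 13072 protein-coding genes. Nearest to Gata2 were Tfcp2l1 (0.29) and Syndig1 (0.30), where the spread of Gata2 itself was 1.28. Sox17 was the fourth nearest to Gata2 (0.31), and Gata2 the third nearest to Sox17, after Fam189a2 (0.27) and Tfcp2l1 (0.30). Nearest to Cebpb, with a spread of 0.81, were Rbm38 (0.29) and Metrnl (0.30). Errfi1, with a spread of 0.62, had Rhoj (0.23) and Rgs5 (0.29), Fkbp4, with 0.43, had Spef1 (0.15) and Cstf3 (0.17), and Bcl6, with 0.53, had Synj1 (0.18) and Lrp1 (0.19). The 24 points share libraries, depth and tissue makeup, so these are descriptions.

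Lists of related genes, without the 10 themselves, give the setting, with changes of single genes and medians on the log2 scale. Of 25 progesterone receptor genes and uterine targets, 1 was called higher and 4 lower in lesions against eutopic uterus at 1 month (median -0.62), and 2 higher and 14 lower at 3 months (median -1.49), against medians over all genes of -0.01 and 0.04. Without lesion library 2 at 1 month 1 was higher and 0 lower (median -0.51), and without lesion libraries 1 and 2 at 3 months 1 was higher and 15 lower (median -1.41), alternatives added after seeing the data. In the first of these fits 11.9% of all genes were called, 6.54% higher and 5.35% lower. In the second, at 3 months, 40.6% were called, 21.0% higher and 19.6% lower. Il13ra2, a decoy receptor of the progesterone-primed stroma, had a mean CPM of 12.2 ± 6.90 for lesions and 48.3 ± 9.16 for eutopic uterus at 1 month, and of 2.17 ± 2.06 for lesions and 46.6 ± 2.57 for eutopic uterus at 3 months (SD, n = 4 each). It fell by 1.97 ± 0.63 and 4.42 ± 0.71 (SE, edgeR, adjusted p = 0.033 and 0.00010). Wnt4, a signal of the decidua, had a mean CPM of 68.2 ± 40.4 for lesions and 4.13 ± 1.1 for eutopic uterus at 3 months, a rise of 4.05 ± 0.61 (edgeR, adjusted p = 6.1e-05).

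Beside Fkbp4, 17 receptor chaperones and co-chaperones counted 0 higher and 1 lower at 1 month (median -0.12) and 1 higher and 4 lower at 3 months (median -0.17). Ppid, another HSP90 co-chaperone with a peptidyl-prolyl isomerase domain, fell at both times (-0.43 ± 0.12 and -0.72 ± 0.12 SE, edgeR, adjusted p = 0.019 and 0.00016). Fkbp5, which works against Fkbp4 on steroid receptors and is induced by them, had a mean CPM of 311 ± 500.4 for lesions and 56.2 ± 6.34 for eutopic uterus at 3 months, with overlapping groups and an SD above the mean. Of 19 other coactivators and corepressors, 1 was higher and 2 lower at 1 month (median 0.12), and 4 higher and 5 lower at 3 months (median 0.21). Without lesion libraries 1 and 2 at 3 months 3 were higher and 5 lower (median 0.04). Ncoa3, of the same coactivator family as Ncoa2, rose by 0.85 ± 0.17 and 0.87 ± 0.17 (adjusted p = 0.0026 and 0.00045), and Hdac3, a corepressor deacetylase, fell by 0.60 ± 0.10 and 0.72 ± 0.10 (adjusted p = 0.00088 and 2.6e-05). Of 20 other BAF subunits 0 were higher and 2 lower at 1 month (median -0.07) and 0 and 5 at 3 months (median -0.13), and 0 and 9 at 3 months without lesion libraries 1 and 2. Smarcd2, one of these subunits, fell by 0.36 ± 0.09 and 0.72 ± 0.09 (edgeR, adjusted p = 0.0088 and 1.0e-05). Without lesion library 2 at 1 month 0 chaperones were called and 1 BAF subunit was lower.

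Of 14 other brakes of ERBB signalling tested, 4 were higher and 0 lower in lesions at 1 month (median 0.35), and 7 higher and 1 lower at 3 months (median 0.36), while Errfi1 fell. Dusp4, a phosphatase of the MAP kinases, had a mean CPM of 11 ± 4.04 for lesions and 1.5 ± 0.311 for eutopic uterus at 1 month (SD, n = 4 each), a rise of 2.89 ± 0.60 (SE, edgeR, adjusted p = 0.0036). Of 6 other C/EBP factors 1 rose at 1 month (median -0.10, and 1 rose and 1 fell without lesion library 2) and 2 at 3 months (median 0.23), among them Cebpa (1.05 ± 0.29 and 1.87 ± 0.29, adjusted p = 0.015 and 8.2e-05). Of 9 BCL6 corepressors, Hdac3 among them, 1 was higher and 1 lower at 1 month (median 0.16). At 3 months 3 were higher and 2 lower (median 0.21). Without lesion libraries 1 and 2 at 3 months 1 was higher and 3 lower (median 0.06). Bcor, which binds BCL6, was up by 0.43 ± 0.12 at both times (edgeR, adjusted p = 0.015 and 0.0063). Of 6 other sirtuins 0 were higher and 1, Sirt4, was lower at each time (medians -0.09 and 0.12). Without lesion library 2 at 1 month 0 sirtuins were called, and without lesion libraries 1 and 2 at 3 months 2 were lower.

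Of 23 other Notch pathway genes 3 were higher and 1 lower at 1 month (median 0.07) and 7 and 1 at 3 months (median 0.21), while Notch1 passed at neither. Adam17, a protease that cuts the receptor, rose by 0.61 ± 0.14 and 1.02 ± 0.14 (SE, edgeR, adjusted p = 0.0057 and 2.8e-05). Of 12 other GATA and SOX factors 3 were higher and 1 lower at 1 month (median 0.31) and 5 and 1 at 3 months (median 0.61). Gata4, known from gonad and heart, had a mean CPM of 60.8 ± 119 for lesions and 0.0674 ± 0.0198 for eutopic uterus at 3 months (SD, n = 4 each), again with an SD above the mean. Without lesion library 2 at 1 month, 2 Notch genes were higher and 0 lower, and 1 GATA or SOX factor was higher. Without lesion libraries 1 and 2 at 3 months, 6 Notch genes were higher and 8 lower, and 2 GATA or SOX factors were higher and 0 lower. In eutopic against sham uterus 0 genes of any of these lists were called at either time. The list counts with all libraries stand against 20.7% of all genes called at 1 month and 40.5% at 3 months, and those without the named lesion libraries against 11.9% and 40.6%.

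**Figure D4:**
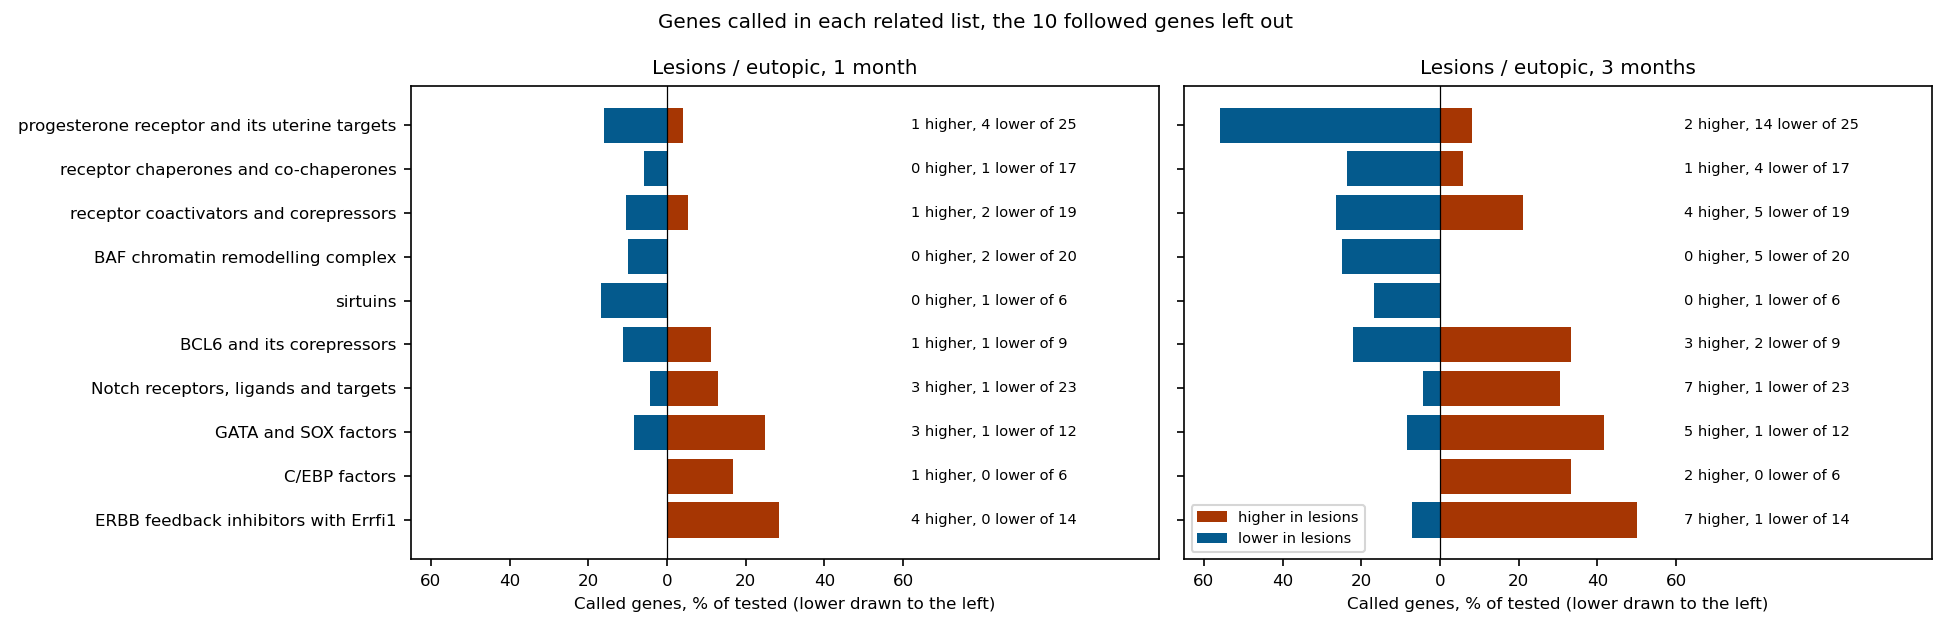
Percent of tested genes called higher (right) and lower (left) in lesions against eutopic uterus (horizontal axis) in each related list without the 10 genes, at 1 and 3 months. In the list of the progesterone receptor and its targets 14 of 25 were lower at 3 months, where 17.1% of all genes were.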

How the data were processed

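Total RNA of mouse uterus and lesions was sequenced in 24 libraries, and the authors deposited a table of whole-number read counts per gene, a column for each library. By the submitters' processing notes, bcl2fastq 1.9.0, STAR 2.7.9a and edgeR were used with genome build mm39. How reads were assigned (annotation release, strand, counting mode) is not given in the sources used here, and reads of overlapping genes may be split or shared.

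The deposited counts went through edgeR 4.0.16 in R 4.3.3, with genes filtered by filterByExpr, TMM factors, and quasi-likelihood F-tests on group means. All 24 libraries entered the fits with lesions (22249 genes tested), and the 16 uterine libraries the fits within the uterus (21208 genes). Calls needed an adjusted p under 0.05 (Benjamini-Hochberg over all genes tested). All 10 genes passed the filter. Levels are in CPM, TMM-scaled, as mean ± SD, and fold changes are log2 with their SE. Depth ran from 45133642 to 59407134 counts, and the lowest count of any of the 10 genes in a library was 462. Genes were named by rule: the 10 genes, up to 4 called genes of each list with the smallest p, and the 2 nearest profiles among genes with a mean log2 CPM of at least 1. The 10 genes and the lists were chosen with earlier results of these data known. The procedure was tested on simulated counts, in which each gene had the same relative spread in every group. A wider spread in lesions than in uterus was therefore not covered by that test.

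Alternatives were DESeq2 1.42.0, DESeq2 size factors in edgeR, no filter, limma 3.58.1 voom, only the compared groups in the fit, a replicate-number term and each library left out, plus the lesion libraries that stand apart left out. Same-numbered libraries correlated above 0.1 in every pair (0.127 to 0.261 across genes) only between eutopic uterus at 3 and 1 months. Those uteri were taken at different times after surgery, so this link cannot be one of shared animals. Between lesions and eutopic uterus at 1 month all 4 correlations were positive (0.0791 to 0.216), with 3 of them above 0.1. What the numbers mark is not known, and the check does not show whether lesion and eutopic libraries share animals. Promoter windows come from RefSeq (GRCm38.p6), a different build from that of the counts.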

Additional observations from a re-analysis of the deposited data

Results flagged for a closer look

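Within groups of 4 libraries, 60 sets of gene and group were examined for a single library far from the other 3. In 2 sets the gap exceeded Dixon's 95% critical value of 0.829, where chance gives about 3. Fkbp4 was at 353 CPM in sham library 2 at 1 month and at 259 to 271 CPM in the other sham libraries of that time. Bcl6 was at 31.5 CPM in sham library 1 at 3 months and at 23.2 to 23.5 CPM in the other sham libraries of that time.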

How the results depend on the processing

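Over 881 values of single genes under other settings, 805 kept their direction and their side of the threshold, 31 lost a call, 18 gained one and 27 changed sign, all 27 in genes that were not called. These values covered all 10 genes for lesions against eutopic and eutopic against sham uterus at each time. In the other comparisons they covered only genes with an unadjusted p under 0.05 in the main fit. Sign changes and gained calls of other genes there, such as that of Notch1 against sham at 3 months, are not counted. Against eutopic uterus at 3 months the 6 calls remained under every alternative run. At 1 month limma voom called 8 of the 10 genes, adding Gata2 (-0.64), Sox17 (-0.93), Fkbp4 (-0.48), Ncoa2 (0.41) and Arid1a (0.19). With only the 2 groups in the fit Sox17 was also called at 1 month (-0.77), and against sham at 3 months the calls were 4, without Gata2 and Errfi1. Against sham at 1 month Bcl6 lost its call with no filter on low counts (0.62, edgeR, adjusted p = 0.069). For lesions at 3 against 1 month the count was 0 when the fit held only these groups. For the change of the lesion to eutopic difference it was 2 with DESeq2, 1 with limma voom and 1 without lesion libraries 1 and 2, and for sham at 3 against 1 month 1 with limma voom. Each library left out in turn gave 2 to 4 calls for lesions against eutopic uterus at 1 month and 6 at 3 months, 0 to 3 and 5 to 6 against sham, 3 to 5 for lesions over time, 0 to 2 for the change of the difference, and 0 in the other comparisons. The causes were not tested.

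With a term for the replicate number (block), edgeR called 4 genes at 1 month against eutopic uterus (Ncoa2 0.35, adjusted p = 0.027) and 4 for lesions over time (Bcl6 0.56, adjusted p = 0.044). For eutopic uterus at 3 against 1 month, where same-numbered libraries deviated together in every pair, the block left 0 called, and it changed no other count. In lesions and eutopic uterus at 1 month all 4 pairs correlated best with their own number, at 0.0791 to 0.216.

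The small differences that did not pass also changed sign. Leaving out 1 library at a time gave these log2 ranges for lesions against eutopic uterus: Sirt1 -0.052 to 0.049 and Notch1 -0.033 to 0.093 at 1 month, and Ncoa2 -0.044 to 0.14, Arid1a -0.011 to 0.13, Sirt1 -0.074 to 0.18 and Notch1 -0.26 to 0.044 at 3 months. For eutopic against sham uterus they were Fkbp4 -0.029 to 0.21, Ncoa2 -0.17 to 0.054 and Bcl6 -0.35 to 0.048 at 1 month, and Bcl6 -0.074 to 0.13 and Sirt1 -0.022 to 0.082 at 3 months. Without lesion libraries 1 and 2 the 3-month values were -0.13 for Ncoa2, -0.12 for Sirt1 and 0.11 for Notch1. With limma voom they were -0.063 for Ncoa2 and 0.017 for Notch1 in lesions against eutopic uterus, and -0.023 for Bcl6 in eutopic against sham uterus, where the replicate block gave -0.0019. A fit of lesions and eutopic uterus alone gave -0.0024 for Sirt1 at 1 month. The cause of these changes was not tested. Calls over all genes moved more than those of the 10. Lesions against eutopic uterus gave 4607 at 1 month (10013 with limma voom) and 9013 at 3 months (3267 with only the compared groups), and lesions over time gave 2435 (0 with only the compared groups). The change of the difference gave 171, 824 with DESeq2 and 468 with limma voom, and eutopic against sham at 1 month gave 2, 13 with DESeq2 and 39 with limma voom.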
